A study of Mus musculus with 28 samples.

Results

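The genes described here encode membrane transporters that carry drugs, bile constituents, organic anions and cations, sterols and lipids in the liver. They are the genes whose symbol begins with Slco, Slc22a, Abca, Abcb, Abcc or Abcg, without Slco1b2 and Abcb11, and they number 72 of the 18182 genes in the deposited table. By name, 33 are uptake carriers of the Slc class (10 Slco, 23 Slc22a) and 39 are ATP-binding cassette (ABC) proteins, grouped as efflux (14 Abca, 9 Abcb, 10 Abcc and 6 Abcg). The symbols alone chose them and no measured value entered the rule.

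RNA was sequenced from 14 hepatocellular carcinomas of mouse liver and from the peritumour tissue of the same 14 animals. All 28 libraries carry the same genotype label, c-Myc/Alb-cre transgenic, in which the albumin promoter drives Cre recombinase in hepatocytes. No liver without the transgenes was analysed here, so peritumour tissue is the only reference, and age, strain and treatment are not given in the labels. The groups are 11 tumour libraries with the letter F (Tu_F), their 11 peritumour partners (Pe_F), and 3 libraries each of Tu_M and Pe_M.

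Hepatocytes take up solutes from sinusoidal blood through carriers of the SLC superfamily, chiefly organic anion transporting polypeptides (OATPs, Slco genes) and the Slc22a organic cation and anion transporters. ABC proteins use ATP to move conjugates, phospholipids and sterols into bile or back into blood, and the canalicular members set much of bile composition. Several ABC proteins do other work: some sit in mitochondria or lysosomes, and Abcc8 and Abcc9 are regulatory subunits of potassium channels.

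Each library held 14777567 to 17576921 estimated counts, and levels are given as counts per 1000000 (CPM) or, between genes, as transcripts per 1000000 (TPM), which corrects for length. The labels do not expand F and M. The summed CPM of 4 Y-linked genes was 0 to 0.176 in the F libraries and 69.2 to 132 in the M libraries. Sample codes in the titles come in 2 styles, and all M libraries have the first, which they share with F replicates 1 to 3. Summed erythroid precursor markers were at 41.0 to 132 CPM in both tissues of F replicates 2, 5 and 6 and at 155 CPM in the tumour of F replicate 4, against 8.88 to 30.6 CPM elsewhere, and the main counts are also given without F replicates 2, 5 and 6. The 28 libraries come from 14 animals, as the codes identify them. Fits without a term for the animal treat the 2 libraries of an animal as independent. Fits with the animal as a block measure how the difference between tissues varies from animal to animal.

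Of the 72 members, 55 passed the expression filter (22 uptake, 33 efflux). The 17 that did not were Slco1a6, Slco1c1, Slco4c1, Slco5a1, Slc22a2, Slc22a12, Slc22a13, Slc22a14, Slc22a20, Slc22a22, Slc22a28, Abca13, Abca14, Abca16, Abca17, Abcb5 and Abcc8. They reached at most 1.43 CPM in any peritumour library. A median of at least 10 TPM was reached in peritumour tissue by 8 uptake and 17 efflux members, and in tumour by 8 and 18.

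On the TPM scale the ABC proteins of the bile canaliculus were among the highest members in both tissues. In peritumour tissue Abcc2, the canalicular conjugate exporter MRP2, had a median of 106 TPM and Abcb4, the canalicular phosphatidylcholine floppase, 106 TPM as well. Abcc3, the basolateral conjugate exporter MRP3, followed at 68.5 TPM, then Slc22a18 at 59.8, Abcg2, the breast cancer resistance protein, at 55.6, and Abcg5, a subunit of the biliary cholesterol exporter, at 50.0 TPM. In tumour Abcc2 was at 81.5, Abcb4 at 74.8 and Abcg5 at 61.5 TPM. The ranges over 14 libraries of neighbours in this order overlapped in both tissues, and genes are named here for their high levels. Among the uptake carriers, Slco2b1 had 34.4 TPM, Slc22a30 had 24.7 and Slc22a7 had 17.8 TPM in peritumour tissue.

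**Figure D1:**
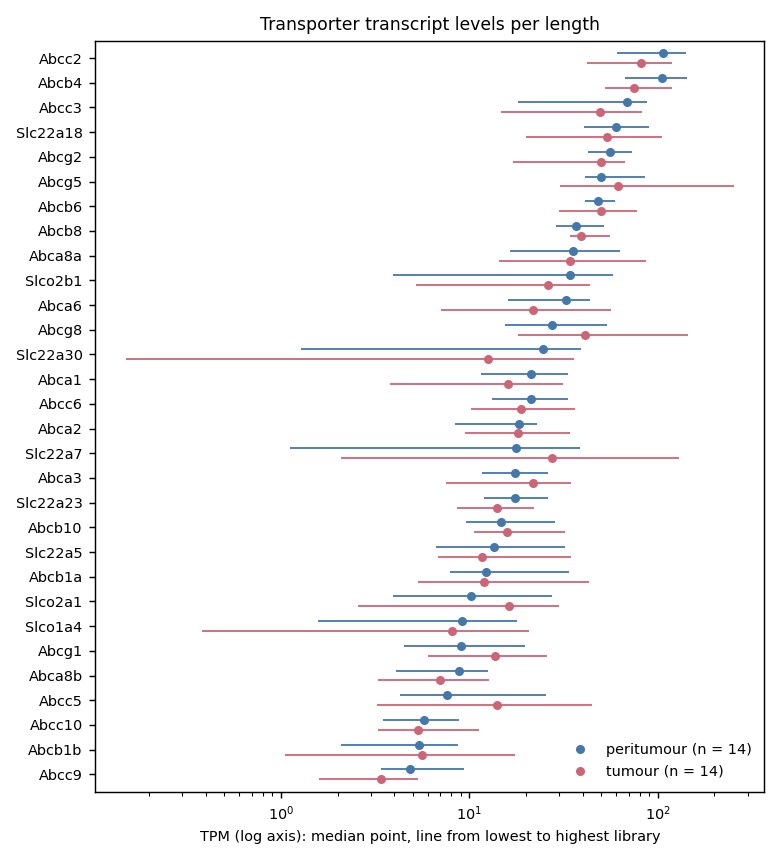
Transcript levels in TPM on a log axis for 30 members with high medians in peritumour tissue; points are medians and lines run from the lowest to the highest of 14 libraries, blue for peritumour and red for tumour. Abcc2 and Abcb4 have the highest medians of those drawn in both tissues, and the lines of the 2 tissues overlap for each gene drawn.

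The question posed by the series design is what separates tissue inside the tumour from tissue around it. With the animal as a block, 15 members fell and 3 rose in tumour at an adjusted p under 0.05 (edgeR quasi-likelihood test, Benjamini-Hochberg over 14117 genes), and 37 did not pass. Among the 3 was Slc22a6, which passed the expression filter through its tumour libraries only and so could be called only as higher. Over all genes tested 5.91% fell and 5.59% rose, beside 27.3% and 5.45% of the 55 members. The median log2 fold change of the tested members was -0.20, beside -0.01 over all genes tested. Uptake carriers and ABC proteins had medians of -0.32 and -0.06: of 22 uptake carriers 9 fell (40.9%) and 1 rose, and of 33 ABC proteins 6 fell (18.2%) and 2 rose. The difference between these shares was not tested. Lower transcript levels in bulk tissue can mean fewer cells of a type or less RNA per cell, and these cannot be told apart here.

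Without the block, the fit planned as the main test called 2 members: Slc22a6 was higher and Abcc9 lower, where 0.808% of all genes were higher and 0.241% lower. Here too Slc22a6 was in the test through its tumour libraries only. At an unadjusted p under 0.05 stood 19 of the 55 tested members, against 2672 of 14117 genes (18.9%). Both calls were lost without any of F replicates 1, 2, 6, 7, 8, 9, 10 or 11 or M replicates 2 or 3 (adjusted p 0.0517 to 0.110, edgeR). In those fits the calls over all genes also went from 148 to between 0 and 4. A q-value for this comparison is given for 70 members in the authors' deposited table, with 26 higher and 25 lower in tumour at q under 0.05, where 43.4% of the 17346 genes with a q-value in that table were higher and 22.6% lower. That q-value is headed DEGseq, another method than the edgeR fits, so its counts are not comparable with theirs. The sign of the log2 fold change in that table was that of the unpaired fit for 51 of the 55 tested members.

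The number of members called with the block fell from 18 to 10 when F replicate 7, 8 or 9 was left out and to 11 without F replicate 10, where the genes called of all tested went from 1624 to 992, 899, 927 and 1127. Without F replicates 2, 5 and 6 it was 17 (4 higher, 13 lower). Scaled by library size alone it was 15 (4 higher, 11 lower), where all genes split into 1151 higher and 677 lower in place of 789 and 835. Of the 18 calls, 9 held whichever animal was left out: Slc22a6, Slc22a27, Slc22a30, Abca1, Abcb4, Abcc2, Abcc5, Abcc9 and Abcg1. For Slc22a6 the limit set by the filter, given above, applies. The ranges of the 2 tissues over all 14 libraries overlapped for every tested member, and the share of all genes with such overlap was not counted.

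**Figure D2:**
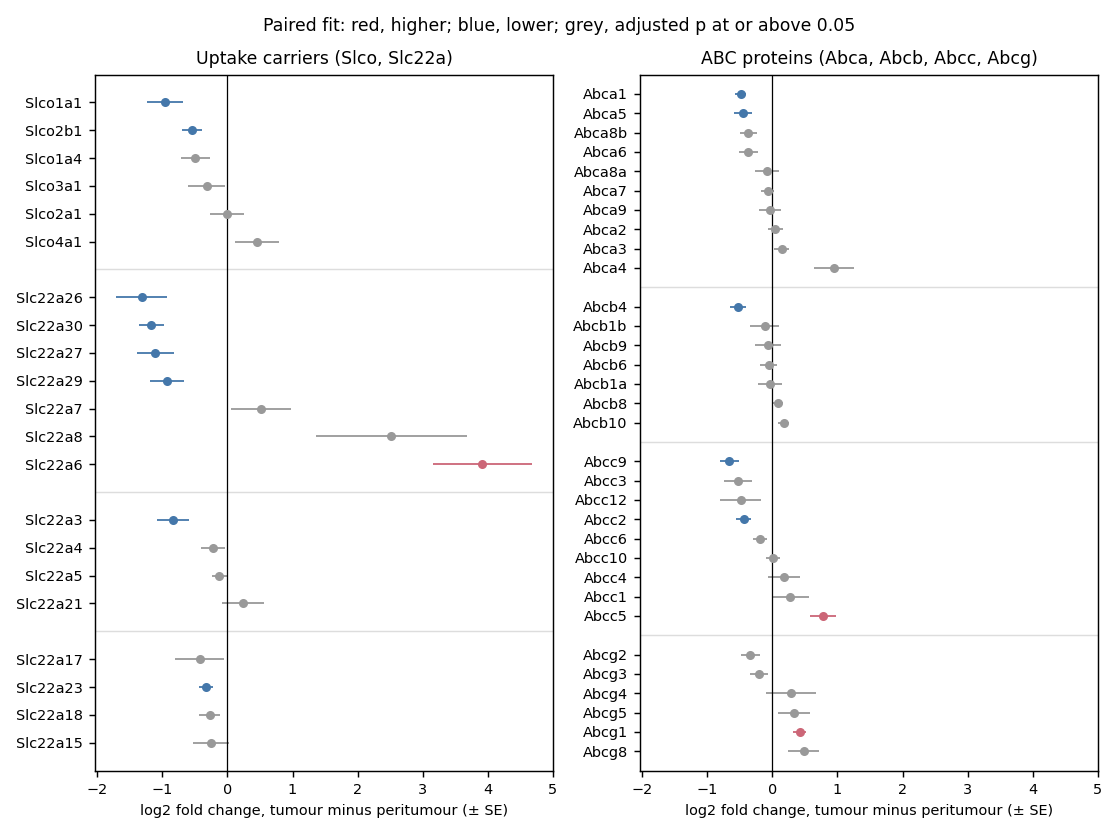
Log2 fold change of tumour minus peritumour (± SE, 14 pairs, animal block) for 53 of the 55 tested members, uptake carriers on the left and ABC proteins on the right, separated by subfamily; blue fell, red rose, grey did not pass an adjusted p of 0.05. Most called uptake carriers lie to the left of 0, from -1.32 (Slc22a26) to -0.33 (Slc22a23), and Slc22a6 lies at 3.92.

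The deepest falls among the tested members, those of Slc22a26, Slc22a30 and Slc22a27, were in a run of organic anion carriers on chromosome 19 (GRCm38). There Slc22a26 (7780468 to 7802669), Slc22a27 (7864388 to 7966595), Slc22a28 (8062209 to 8131982), Slc22a29 (8160168 to 8253522) and Slc22a30 (8335371 to 8405111) lie close together. Slc22a8 (8591254 to 8611835) and Slc22a6 (8617996 to 8628299), the organic anion transporters OAT3 and OAT1 best known from kidney, follow. Several genes of the run are close in sequence, while Slc22a26 stands apart, with 73.9% to 74.5% transcript identity to Slc22a27, Slc22a28, Slc22a29 and Slc22a30. The transcripts of Slc22a28 and Slc22a30 were 98.8% identical over 2005 aligned bases, and those of Slc22a27 and Slc22a29 96.8% identical over 2088 (GENCODE M21), so how the authors' counting split reads between them is uncertain. The stretches before the start sites show the same kinship. They are given here because near-identical upstream sequence of Slc22a28 and Slc22a30 sits beside very different estimated levels, which rest on that uncertain split of reads. Shown are the bases before the RefSeq start of Slc22a30 (chr19:8405106-8405285, minus strand, RefSeq on GRCm38.p6). Capitals in the others mark bases that differ from Slc22a30 in a local alignment. Slc22a28 (chr19:8131983-8132153) matches at 168 of 171 bases (98.2%). Slc22a29 (chr19:8218901-8219055, before a start inside the span of the gene given above) matches at 139 bases (89.1% of the aligned columns, 15 bases differing).
Slc22a30: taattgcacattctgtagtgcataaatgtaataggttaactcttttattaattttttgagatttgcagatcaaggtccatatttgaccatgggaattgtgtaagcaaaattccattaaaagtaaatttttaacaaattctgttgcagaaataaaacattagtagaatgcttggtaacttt
Slc22a28: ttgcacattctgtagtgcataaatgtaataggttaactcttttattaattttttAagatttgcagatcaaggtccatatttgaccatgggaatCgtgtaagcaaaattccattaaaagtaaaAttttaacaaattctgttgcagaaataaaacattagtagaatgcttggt
Slc22a29: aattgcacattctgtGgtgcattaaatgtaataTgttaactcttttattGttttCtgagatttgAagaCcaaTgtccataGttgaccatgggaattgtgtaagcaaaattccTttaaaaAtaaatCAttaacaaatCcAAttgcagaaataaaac

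Slc22a30 ranged from 1.82 to 55.3 CPM (median 32.7) in peritumour tissue and from 0.117 to 49.9 CPM (median 16.6) in tumour. The M animals had 50.8, 37.5 and 27.2 CPM in peritumour tissue and 49.9, 22.4 and 3.40 CPM in tumour. Tumour was the lower member in all 14 pairs although the ranges of the tissues overlap, and F replicate 5 was the lowest library in each tissue. The log2 fold change was -1.17 ± 0.19 (SE), adjusted p = 0.00206 (edgeR, animal block), and from -1.27 to -1.02 when any animal was left out. Slc22a28, named after its values were seen, reached at most 0.454 CPM in peritumour tissue and 0.407 in tumour.

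Slc22a27 ran from 1.69 to 7.55 CPM (median 4.34) in peritumour tissue and from 0.128 to 7.99 (median 1.60) in tumour. Tumour was lower in 13 of 14 pairs, all but F replicate 5, with a log2 fold change of -1.11 ± 0.28 (SE), adjusted p = 0.0206 (edgeR, animal block). Slc22a29 had medians of 1.51 CPM in peritumour and 0.942 CPM in tumour (ranges 1.02 to 3.55 and 0.384 to 2.83) and was lower in 13 pairs. Its change of -0.93 ± 0.26 (SE), adjusted p = 0.0316 (edgeR, animal block), lost the call without any of F replicates 3, 6, 7, 8, 10 or 11 or M replicate 3, where adjusted p reached 0.0651. Slc22a26 had medians of 1.60 and 0.676 CPM (ranges 0.26 to 10.4 and 0.0583 to 4.83), was lower in 13 pairs and was higher in the tumour of F replicate 2, with 2.82 CPM against 0.26. Its change was -1.32 ± 0.39 (SE), adjusted p = 0.039 (edgeR, animal block). That call did not survive the removal of any of F replicates 3 to 11 or of M replicate 2 (adjusted p up to 0.0795), and the estimate was -0.48 in the first code style alone and -1.81 in the second. Slc22a29 and Slc22a30 moved in the same direction in 13 of 14 animals, and Slc22a26 and Slc22a27 in 12. These counts follow from the pairs given above for each gene and do not show that neighbours move together.

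Slc22a6 moved the other way. In peritumour tissue it was at 0 to 0.13 CPM, a total of 9 counts over 14 libraries. In tumour M replicate 2 stood far above the rest with 24.3 CPM (381 counts). The F tumours with the most were F replicate 7 with 2.53 CPM, F replicate 6 with 1.38, F replicate 5 with 1.22, F replicate 3 with 0.498 and F replicate 4 with 0.47 CPM, and the other 8 tumours had 0 to 0.202 CPM. In 11 of 14 pairs the tumour had more. The unpaired fit put the log2 fold change at 4.51 ± 0.99 (SE), adjusted p = 0.0391, and the block fit at 3.92 ± 0.76, adjusted p = 0.00544 (edgeR). Without M replicate 2 the block estimate was 2.99 and the call held (adjusted p = 0.0164, edgeR). These folds rest on near-absence in peritumour tissue, so their size depends on the fit, and Slc22a6 passed the expression filter through its tumour libraries only.

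Slc22a8, chosen after its values were seen, was at 7.70 CPM in the tumour of F replicate 6 and at 2.74 in that of F replicate 5, whose peritumour tissue had 1.49 CPM. It was at 0.311 CPM or below in every other library and did not pass (2.52 ± 1.16, adjusted p = 0.196, edgeR, animal block). The tumour of M replicate 2, highest for Slc22a6, had no count of Slc22a8. The 100 bases before a RefSeq start of each gene are shown because both hold GTTAAT, given in capitals, part of the motif of the hepatocyte nuclear factor HNF1. Slc22a6 is at chr19:8617896-8617995 and Slc22a8 at chr19:8593082-8593181, both on the plus strand (RefSeq, GRCm38.p6).
Slc22a6: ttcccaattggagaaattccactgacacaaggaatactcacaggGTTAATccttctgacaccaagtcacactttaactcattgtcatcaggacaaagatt
Slc22a8: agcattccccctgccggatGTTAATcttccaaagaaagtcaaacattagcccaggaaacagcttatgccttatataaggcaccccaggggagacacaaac

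RefSeq promoter windows, from 250 bases before to 50 after a start, were at hand for 58 of the 72 members, 67 windows in all. GTTAAT stood on either strand in 3 of these (4.48%), those of Slc22a6, Slc22a8 and Slc22a29, and in 7.1% of 32851 windows of all genes. CACGTG, the E-box bound by Myc with its partner Max, stood in 6 of the 67 (8.96%; Abca1, Abca8a, Abca8b, Abcc4, Slc22a4 and Slco1c1) and in 7.15% of all windows. CCAAT stood in 24 (35.8%) and in 37.4% of all windows. None of the 3 motifs contains another, and these are letter matches only.

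Slc22a7 (OAT2), the organic anion carrier of hepatocytes, had a median of 20.8 CPM in peritumour tissue (1.3 to 45.4) and 33.2 CPM in tumour (2.56 to 147). The spread was wider in tumour, and tumour was higher in 8 pairs and lower in 6. It did not pass (0.52 ± 0.46, adjusted p = 0.482, edgeR, animal block).

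**Figure D3:**
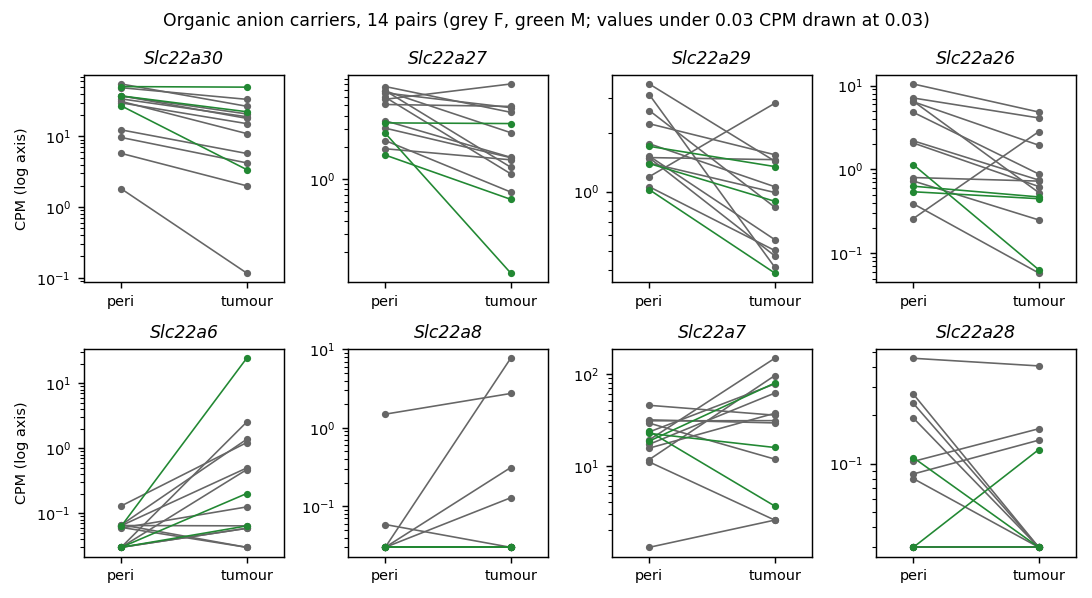
CPM on log axes for 8 organic anion carriers, with a line joining the peritumour and tumour library of each of 14 animals (grey F, green M; values under 0.03 CPM drawn at 0.03). Lines for Slc22a30 slope down in every animal, Slc22a6 rises to 24.3 CPM in M replicate 2, and Slc22a7 goes in both directions.

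Among the OATPs, 2 of 6 tested genes fell and none rose. Slco2b1 (OATP2B1), a broad-specificity carrier of steroid sulfates and drugs, ran from 9.35 to 139.7 CPM (median 85.3) in peritumour tissue and from 13.3 to 109 (median 65.3) in tumour. F replicate 5 was the lowest peritumour library and F replicate 6 the lowest tumour. Tumour was lower in 10 of 11 F pairs and 1 of 3 M pairs, where peritumour libraries had 75.6, 79.0 and 78.3 CPM and tumours 76.1, 84.1 and 49.4 CPM. The change was -0.55 ± 0.16 (SE), adjusted p = 0.0326 (edgeR, animal block), and was not called without any of F replicates 1, 3, 6, 8, 9 or 10 or M replicate 3 (adjusted p up to 0.068).

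Slco1a1, an OATP of bile acids and steroid conjugates known as male-predominant in mouse liver, was low here, with medians of 1.21 CPM in peritumour and 0.784 CPM in tumour. The M animals had 1.70, 2.53 and 1.69 CPM in peritumour tissue and 1.14, 1.85 and 1.86 CPM in tumour. The highest library was an F peritumour tissue, replicate 4 with 24.0 CPM, whose tumour had 9.47 CPM, and replicate 8 followed with 6.09 and 2.94 CPM. Tumour was lower in 13 of 14 pairs, and the change of -0.96 ± 0.28 (SE), adjusted p = 0.0379 (edgeR, animal block), was lost without any of F replicates 4, 7, 8, 9 or 10 (adjusted p up to 0.0766) and with library size scaling (0.051).

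Slco1a4, its neighbour on chromosome 6 with 85.2% transcript identity over 2255 bases, ranged from 3.57 to 41.0 CPM (median 20.2) in peritumour tissue and from 0.758 to 51.4 (median 18.3) in tumour. It was lower in the tumour of 10 of 11 F animals and higher in that of all 3 M animals, where peritumour levels were 41.0, 17 and 15.6 CPM and tumour levels 43.4, 20.3 and 32.8 CPM. Over all pairs it did not pass (-0.49 ± 0.22, adjusted p = 0.152, edgeR, animal block). Within F it fell by 0.76 on the log2 scale, adjusted p = 0.0347 (edgeR, animal block), and the test of the difference between M and F gave 1.18 with adjusted p = 0.688 (edgeR). Slco2a1, the prostaglandin carrier, had medians of 24.9 and 40.2 CPM, was higher in 7 pairs and lower in 7, and did not pass (-0.01 ± 0.26).

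Slco3a1, chosen after its values were seen, stood at 106 CPM in the tumour of F replicate 2, while the other 13 tumours had 1.85 to 10.3 CPM and peritumour libraries 3.34 to 20.5 CPM. The partner peritumour tissue of that tumour had 5.58 CPM. It was lower in 11 of the 14 tumours. With all animals it did not pass (-0.32 ± 0.28, adjusted p = 0.485), and without F replicate 2 it fell by 0.53 on the log2 scale, adjusted p = 0.0122 (edgeR, animal block).

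Of 5 tested organic cation and carnitine carriers, 2 fell, among them Slc22a3. Slc22a3 (OCT3), outside the naming rule for its low level and chosen after its values were seen, had medians of 0.699 and 0.405 CPM and fell by 0.84 on the log2 scale (adjusted p = 0.0361, edgeR, animal block). Without any of F replicates 1, 7, 9, 10 or 11 or M replicates 2 or 3 it did not pass (up to 0.0733).

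Slc22a5 (OCTN2), the carnitine carrier, differed more between animals than between tissues, with 12.0 to 62.7 CPM (median 25.0) in peritumour tissue and 12.9 to 67.9 CPM (median 22.0) in tumour. M replicate 3 was the highest in both tissues. It did not pass (-0.12 ± 0.12, adjusted p = 0.511, edgeR, animal block). Slc22a2 (OCT2), the kidney organic cation transporter and likewise chosen after its values were seen, was at 4.98 CPM in the tumour of F replicate 3 and at 0.117 CPM or below in the other 27 libraries. It did not pass the expression filter.

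Of the remaining Slc22a genes 1 of 4 tested fell. Slc22a23, an orphan member, had medians of 62.4 CPM (47.2 to 88.2) in peritumour and 50.3 CPM (32.6 to 73.4) in tumour and was lower in 11 pairs. Its change of -0.33 ± 0.10 (SE), adjusted p = 0.049 (edgeR, animal block), lost the call without any animal other than F replicates 4, 5 and 11 (adjusted p up to 0.101) and with library size scaling (0.0649).

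The ABC proteins of the canalicular and basolateral membrane gave smaller changes on higher levels. Abcc2 ran from 219.6 to 465 CPM (median 359.5) in peritumour tissue and from 151 to 392 (median 277) in tumour. The M animals had 358, 449 and 361 CPM in peritumour tissue and 334, 311 and 274 CPM in tumour, each lower in its tumour. Tumour was lower in 11 of 14 pairs, with a change of -0.44 ± 0.11 (SE), adjusted p = 0.0213 (edgeR, animal block). The call held whichever animal was left out (up to 0.0466), and without F replicates 2, 5 and 6 together adjusted p was 0.0531 (edgeR).

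Abcb4 (chromosome 5, 8893598 to 8959226) ran from 152 to 326 CPM (median 245) in peritumour tissue and from 118 to 278 (median 174) in tumour. F replicates 1 and 4 were the only animals with more in the tumour. The change was -0.53 ± 0.12 (SE), adjusted p = 0.0149 (edgeR, animal block), and the call held without any single animal and without F replicates 2, 5 and 6 (0.0397). Abcc3 had medians of 214 CPM (54.8 to 284) and 159 CPM (43.4 to 283), was lower in 10 pairs and did not pass (-0.53 ± 0.22, adjusted p = 0.114, edgeR, animal block). Abcc2 and Abcc3 moved in the same direction in 13 of 14 animals.

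Abcb1a and Abcb1b, the mouse P-glycoproteins that export many drugs, did not pass the test between tissues. Abcb1a had medians of 38.3 CPM (24.4 to 101) in peritumour and 36.6 CPM (18.7 to 136) in tumour, and Abcb1b 14.6 CPM (5.41 to 23.7) and 15.1 CPM (2.64 to 50.3). Both were higher in 8 pairs and lower in 6, with all 3 M tumours on the higher side. Their changes were -0.04 ± 0.18 and -0.12 ± 0.22, adjusted p = 0.904 and 0.767 (edgeR, animal block). The neighbours on chromosome 5 are 87.2% identical over 4032 transcript bases, and they moved together in 8 of 14 animals. Abcg2, exporter of urate and sulfate conjugates, had 72.3 CPM (57.5 to 92.8) in peritumour and 66.9 CPM (22.9 to 83.5) in tumour and did not pass (-0.34 ± 0.15, adjusted p = 0.139, edgeR, animal block). Abcc6, the ATP-release protein of hepatocytes, did not pass either (75.6 against 69.1 CPM, -0.20 ± 0.11, adjusted p = 0.234, edgeR, animal block).

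Abcc4 (MRP4), a basolateral exporter of bile acids and cyclic nucleotides, had close medians of 11.5 CPM (7.42 to 22.1) in peritumour and 14.8 CPM (3.76 to 67.0) in tumour. The tumours of F replicates 5 and 6 were the highest, with 43.8 and 67.0 CPM. In all 3 M animals the tumour was lower, at 7.59, 3.76 and 7.10 CPM against 9.91, 10.5 and 12.4 CPM. Over all pairs it did not pass (0.17 ± 0.25, adjusted p = 0.678, edgeR, animal block).

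Of 9 tested Abcc genes 2 fell and 1 rose. Abcc5 (MRP5), an exporter of cyclic nucleotides and other organic anions, was the riser, with medians of 28.8 CPM (18.3 to 99.5) in peritumour and 51.0 CPM (11.9 to 180.4) in tumour. F replicate 6 with 180.4 CPM and F replicate 1 with 154 CPM were the highest tumours, and tumour was higher in 12 of 14 pairs, all but F replicates 5 and 11. The change was 0.78 ± 0.20 (SE), adjusted p = 0.0221 (edgeR, animal block), and passed without any single animal (up to 0.0458).

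Abcc9, the SUR2 subunit of potassium channels in vascular mural and muscle cells, ran from 15.8 to 41.4 CPM (median 22.3) in peritumour tissue and from 8.23 to 23.1 (median 15.6) in tumour. The M animals had 37.7, 34.5 and 19.4 CPM in peritumour tissue and 17.7, 11.2 and 12.0 CPM in tumour. It was lower in 12 of 14 pairs, with a change of -0.69 ± 0.16 (SE) without pairing, adjusted p = 0.0391, and -0.66 ± 0.15 with the block, adjusted p = 0.0114 (edgeR). With library size scaling the unpaired call was lost (0.0561). Summed markers of stellate cells and fibroblasts had a median of 726 CPM (440.1 to 1492) in peritumour tissue and 548 CPM (229 to 1877) in tumour, and 5 of the 11 fell while 1 rose with the block. Their part in the fall of Abcc9 was not tested.

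Of the 10 tested Abca genes 2 fell and none rose. Abca1, which loads cholesterol onto apolipoprotein A-I at the basolateral membrane, ran from 76.6 to 214 CPM (median 136) in peritumour tissue and from 27.3 to 199.9 (median 106) in tumour. It was lower in the tumour of all 14 animals, least in M replicate 1, with 189.6 CPM in peritumour tissue and 182 CPM in tumour, and most in F replicate 11, with 79.5 and 27.3 CPM. The ranges of the tissues overlap, and each is wider than the gap between the 2 medians. The change was -0.49 ± 0.09 (SE), adjusted p = 0.00347 (edgeR, animal block), and passed whichever animal was left out (up to 0.0096). Abca5, a lysosomal lipid transporter, had medians of 6.2 and 4.79 CPM and a change of -0.45 ± 0.13, adjusted p = 0.0364 (edgeR, animal block), lost without any of F replicates 1, 4, 7, 8 or 9 or M replicate 2 (up to 0.0743). The other 8 tested Abca genes did not pass.

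Abcg1, which moves cholesterol to HDL and is prominent in macrophages, had medians of 32.7 CPM (16.4 to 69.5) in peritumour and 48.5 CPM (23.5 to 88.6) in tumour. It was higher in the tumour of 12 of 14 animals, all but F replicate 9 and M replicate 3. The change was 0.42 ± 0.10 (SE), adjusted p = 0.015 (edgeR, animal block), and the call held without any single animal (up to 0.0356). Summed Kupffer cell and macrophage markers had medians of 871 CPM (484 to 1367) in peritumour and 772 CPM (346 to 1332) in tumour, and 4 of the 10 fell with the block. Their part in the level of Abcg1 was not tested.

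Abcg5 and Abcg8, the sterolin subunits that together export cholesterol into bile, are transcribed in opposite directions from neighbouring starts on chromosome 17, at 84683011 and 84683121 (RefSeq, GRCm38.p6). The 109 bases between the starts (chr17:84683012-84683120, plus strand) are shown because the genes moved together.
Abcg5 to Abcg8: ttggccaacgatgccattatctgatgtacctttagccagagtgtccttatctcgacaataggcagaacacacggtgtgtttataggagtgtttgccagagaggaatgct
Abcg5 had medians of 73.6 CPM (58.1 to 121) in peritumour and 89.4 CPM (45.2 to 375) in tumour, and Abcg8 62.2 CPM (33.4 to 118) and 92.2 CPM (39.5 to 334). F replicate 1 had the highest tumour for both, 375 and 334 CPM against 121 and 105 CPM beside it. Tumour was lower in 5 of 14 pairs for Abcg5 (F replicates 2, 5 and 7, M replicates 1 and 3) and in 4 for Abcg8, the same animals without M replicate 1. The largest falls of Abcg5 were from 92.7 to 47.8 CPM in F replicate 2 and from 121 to 45.2 CPM in F replicate 5. The genes moved in the same direction in 13 of 14 animals. Neither passed (0.33 ± 0.24 and 0.48 ± 0.24, adjusted p = 0.392 and 0.202, edgeR, animal block). Without F replicates 2, 5 and 6 both rose, by 0.66 and 0.83 on the log2 scale (adjusted p = 0.0489 and 0.0132, edgeR, animal block).

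Among the 8 tested Abcb genes 2 fell, among them Abcb4, described above. The mitochondrial members Abcb6, Abcb8 and Abcb10, named after their values were seen, did not pass and had medians of 87.0, 66.4 and 35.0 CPM in peritumour and 91.2, 69.9 and 36.5 CPM in tumour.

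**Figure D4:**
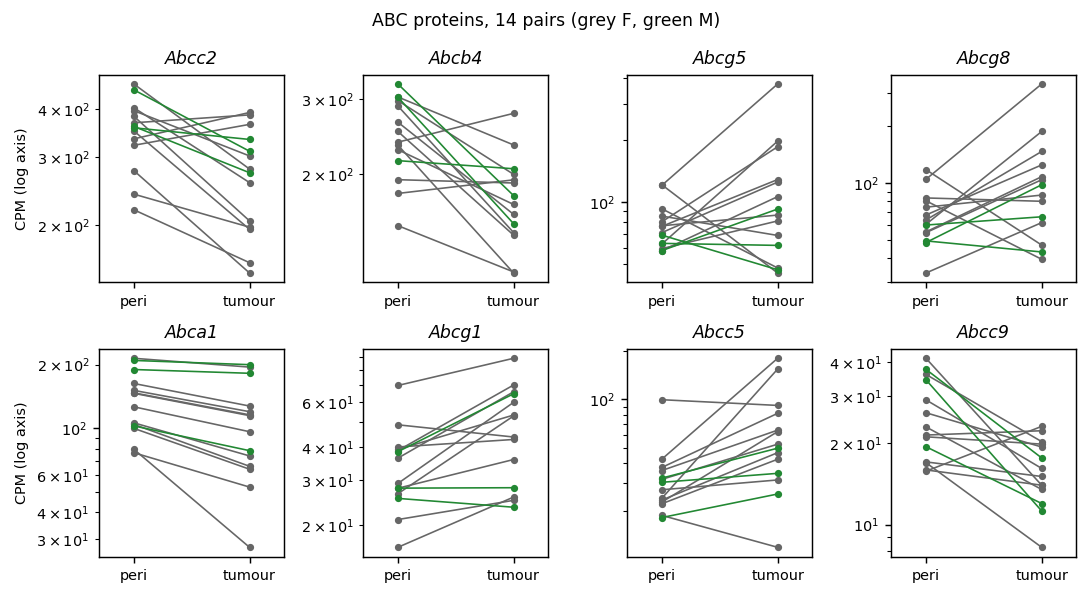
CPM on log axes for 8 ABC proteins, with a line joining the peritumour and tumour library of each of 14 animals (grey F, green M). Abca1 slopes down in every animal, Abcg5 and Abcg8 fan out alike, and Abcc5 rises in 12 of 14 animals.

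Animals differed in how far the members moved. Of the 55 tested members 29 to 41 were lower in the tumour of an animal, the fewest in F replicate 4 and the most in F replicates 2 and 7, where 47.3% to 54.4% of all genes were lower across the animals. The median member difference ran from -0.62 in F replicate 2 to -0.02 in M replicate 1. Since the 15 members that fell were chosen on these pairs, their count per animal is a description: 15 of 15 were lower in F replicates 7 and 8 and 10 of 15 in F replicate 5. The peritumour tissue of F replicate 5 was the lowest of the 14 for 10 of the 22 tested uptake carriers, among them Slco2b1 at 9.35, Slc22a7 at 1.3 and Slc22a30 at 1.82 CPM, and was above the median for 6, among them Slc22a5 at 39.7 CPM. The same library had the lowest summed hepatocyte markers of the 14 peritumour tissues, 26325 CPM against a median of 50103, and the highest summed erythroid precursor markers, 132 CPM against a median of 26.4.

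**Figure D5:**
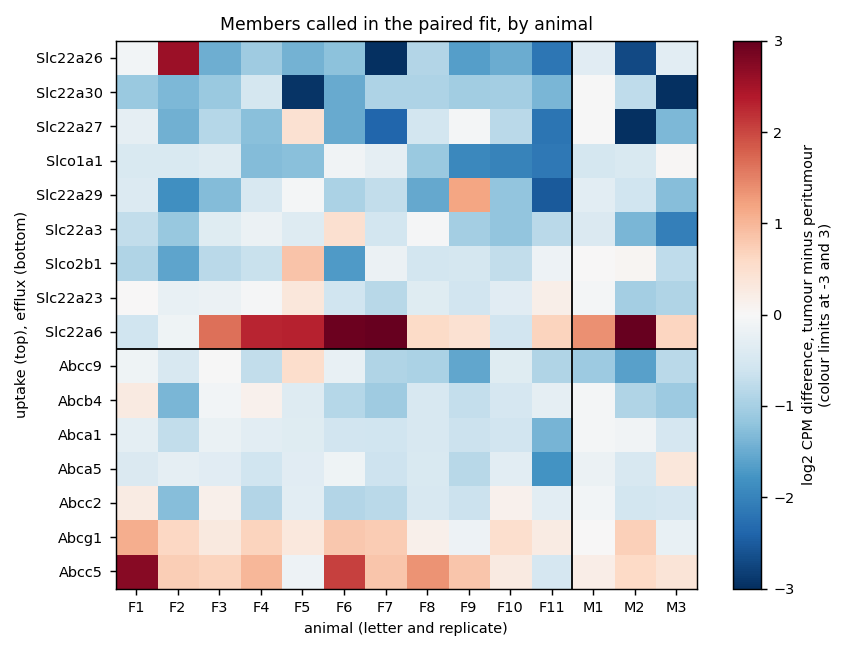
Log2 CPM difference of tumour minus peritumour in each of 14 animals (F left, M right of the line) for 16 of the 18 members called with the animal block, uptake carriers above and ABC proteins below the line; colours stop at -3 and 3. Abca1 and Slc22a30 are below 0 in each animal, and Abcc5 is above 0 in 12 of 14.

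M and F animals were compared within each tissue, a comparison named in the titles' letters. In peritumour tissue no member passed (edgeR, where 0.0283% of all genes were higher in M and 0% lower), and 0 members had an unadjusted p under 0.05, against 1.52% of all genes, while DESeq2 called 0 with 1 member at an unadjusted p under 0.05. In tumour 0 members passed as well (0.0283% higher, 0% lower), and DESeq2 called 0. At an unadjusted p under 0.05 stood 11 of the 55 tested members, against 1389 of 14117 genes (9.84%). Among these 11, Slc22a6 and Abcb1b had higher and Abcc4, Abcg5, Abcg8 and Slco2a1 lower estimates in M tumours. For Slc22a6, M replicate 2 had 24.3 CPM and the other M tumours 0.202 and 0.064 CPM, where F tumours reached 2.53 CPM. Abcc4 was at 3.76 to 7.59 CPM in M tumours and 7.58 to 67.0 CPM in F tumours (-1.34 ± 0.51, adjusted p = 0.388, edgeR). Scaled by library size alone, the median of all genes for M against F moved to -0.13 in peritumour tissue and -0.11 in tumour.

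Letter and code style overlap, since the 3 M animals share the first style with only 3 F animals. Abca1 was higher in F libraries of that style, with peritumour medians of 163 CPM against 105 CPM in the second style. Within the first style alone, M against F called 0 members in either tissue (edgeR). At an unadjusted p under 0.05 stood 1 and 9 of the 52 tested members, beside 355 and 1893 of 13663 genes.

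Within F, 10 of the 55 tested members fell and 3 rose in tumour with the animal block (5.23% and 4.6% of all genes). Without the block 0 fell or rose (0.0496% and 0.262% of all genes), and DESeq2 called 5. In that unpaired edgeR fit 16 of the 55 had an unadjusted p under 0.05 (17.5% of all genes). Within M, 0 members passed with or without the block (0% in each direction) and DESeq2 called 0. At an unadjusted p under 0.05 stood 13 of the 55 tested members with the block (9.64% of all genes) and 7 of the 55 without it (4.07%). The tumour effect differed between M and F for 0 members in both fits (0% of all genes), and DESeq2 called 0. An unadjusted p under 0.05 was reached by 8 of the 55 tested members with the block (7.09% of all genes). Without it 3 of the 55 reached it (3% of all genes). Hence the calls within F are not shown to differ from M.

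Other genes of hepatic transport were read from lists. Among 23 tested further transporters 5 fell and 1 rose with the block, with a median of -0.22, where 5.91% of all genes tested fell and 5.59% rose. Slco1b2, the main OATP of mouse liver, went from a median of 164 to 102 CPM (-1.18 ± 0.20) and Slc17a3, an organic anion and phosphate carrier, from 24.6 to 19.3 CPM (-0.57 ± 0.12), each lower in 13 of 14 pairs. Slc29a2, an equilibrative nucleoside carrier, rose from 5.63 to 12.5 CPM (0.85 ± 0.14) and was higher in 13 pairs. The largest adjusted p of these 3 was 0.0107 (edgeR, animal block), and none passed unpaired.

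Of 25 nuclear receptors and factors known to control transporter genes, 2 fell and 2 rose with the block (median -0.09). These counts are near the shares of all genes tested, of which 5.91% fell and 5.59% rose, and none of the 25 passed unpaired. Nr1i3, the constitutive androstane receptor CAR, fell from a median of 61.8 to 33.6 CPM (-0.94 ± 0.18, adjusted p = 0.00509), and Nr1h4, the bile acid receptor FXR, from 118 to 101 CPM (-0.34 ± 0.10, adjusted p = 0.0324), each lower in 12 of 14 pairs (edgeR, animal block). Srebf2, the sterol-sensing factor, rose from 86.9 to 110.3 CPM (0.37 ± 0.10, adjusted p = 0.022) and Rara, a retinoic acid receptor, from 23.1 to 27.9 CPM (0.25 ± 0.08, adjusted p = 0.0469, edgeR, animal block). Of 10 membrane scaffold and retention genes none passed.

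Markers of cell types moved with the tissues too. Their counts below are from the fit with the block, where 5.91% of all genes tested fell and 5.59% rose. Summed hepatocyte markers had a median of 50103 CPM (26325 to 67408) in peritumour and 38446 CPM (25137 to 55654) in tumour, lower in 11 of 14 pairs, and 4 of 10 fell. Summed pericentral hepatocyte markers, which label the zone around the central vein, had medians of 1802 CPM (571 to 3893) and 979.9 CPM (368 to 2236), lower in all 14 pairs, and 9 of 10 fell with a median of -0.95. No marker of these lists was at 0 in every library. Of cholangiocyte markers 1 of 10 rose and 1 fell, with medians of 208 CPM (109 to 400) in peritumour and 161 CPM (85.5 to 2244) in tumour. The highest of these sums was in the tumour of F replicate 2, which also had the lowest summed hepatocyte markers. Of endothelial markers 2 of 11 fell (304 and 315 CPM), and of erythroid, granulocyte and lymphocyte markers none passed. The part of the hepatocyte markers in the falls of the transporters was not tested.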

How the data were processed

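RNA was extracted with Trizol, selected with oligo(dT) beads and reverse transcribed from random hexamers, per the labels' protocols. The submitters' processing notes name RSEM 1.2.12, HISAT2 2.0.4, DESeq2 1.4.5 and Bowtie2 2.2.5, with no roles. Strandedness of the libraries is not given in the sources used. The authors deposited estimated counts and TPM per gene and library, per the file headers, with 8.06% of the count values not whole. The authors' deposited table also holds a log2 fold change and a q-value for tumour against peritumour, the latter headed DEGseq. It has 18182 genes after 1 row without a gene ID was left out, and 26 symbols that had turned into dates were looked up by ID. Coordinates are those of the table (GRCm38), and sequences are from RefSeq.

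Estimated counts were rounded and CPM computed from library totals. Tests used edgeR 4.0.16 in R 4.3.3 (TMM, filterByExpr leaving 14117 genes, robust quasi-likelihood fit, Benjamini-Hochberg over all genes, threshold 0.05), tested on simulated data first. The unpaired fit had code style and letter as covariates. Each tumour shares a title code with 1 peritumour library, taken as the animal. The deviations of the 2 libraries of a pair from their group means correlated over genes in all 14 pairs (0.135 to 0.61; median over unpaired libraries -0.0171), so the fit with the animal as a block is given beside it. M and F contrasts came from 1 fit of the 4 groups with code style. Alternatives were DESeq2 1.42.0, library size scaling, no filter, no code style, each animal left out, F replicates 2, 5 and 6 left out, and each code style alone.

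Named are members with a mean of at least 1 CPM that passed in any of these fits, 18 well-known transporters whatever their result, and up to 4 genes of each other list. A few genes that meet this rule are counted in the totals and not reported here. The members and lists were chosen with earlier results of these data known. Upstream sequences were aligned with Biopython and transcripts with blastn.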

Additional observations from a re-analysis of the deposited data

How the results depend on the processing

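Without pairing 2 members were called (1 higher, 1 lower). The count was 1 with library size scaling, 4 without F replicates 2, 5 and 6, 0 in either code style alone and 0 to 3 when 1 animal was left out (0 to 246 of all genes, and 0 of all genes in either style), and 18 with the replicate block, where pairing by animal was used. The blocked count of 18 became 8 in the second code style alone, 0 in the first and 10 to 17 when 1 animal was left out, where all genes called went from 1624 to 981, 0 and 899 to 1957. Within F, 0 members were called without pairing, 5 by DESeq2, 0 to 1 when 1 animal was left out and 13 with the replicate block. M against F in either tissue, tumour against peritumour within M and the difference of the tumour effect between M and F gave 0 under every setting run. The replicate block was among these for the effect within M and its difference from F, and was not run for M against F, whose animals are different. No result reversed. Of 1491 values of named members under alternatives, 1351 kept their side of the threshold, 106 lost a call and 34 gained it, and 64 uncalled values changed sign. All 18 blocked calls were kept by DESeq2 and 14 with library size scaling, and of the 16 with values in both code styles all kept their direction. In the second style alone 7 remained. With 3 M animals a failure to pass says little about the size of a difference, and genes with few counts, such as Slc22a6 in peritumour tissue, have folds that depend on the fit. Settings that leave out animals hold fewer libraries, and beyond that the cause of these changes was not tested.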
